A study of Mus musculus with 12 samples.

Results

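Hepatocyte bile acid and drug transporters were described as 10 genes, found in the deposited table by the Ensembl identifiers of their symbols, and all 10 are among its 27022 genes. They are the sodium-dependent bile acid carrier Slc10a1, the organic anion transporting polypeptides (OATPs) Slco1a1, Slco1a4, Slco1b2 and Slco2b1, the canalicular exporters Abcb11, Abcc2 and Abcb1a, and the basolateral exporters Abcc3 and Abcc4. The genes were selected on measured values of these same libraries, with results known, and which of the values entered is not recorded. The effects of the diet on these 10 genes in either kit, and the difference of these effects between the kits, are therefore given as a description, and no p-value is printed for them. P-values are given for the difference in level between the kits and for other genes of the pathway. Whether the kit levels entered the selection is not recorded. The lists of other genes were also chosen with earlier results of these data known. These p-values are therefore not independent of the choice of genes.

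Hepatocytes take up bile acids, bilirubin and many drugs from the blood through carriers on the sinusoidal (basolateral) membrane and pump them into bile through ATP-driven exporters on the canalicular membrane. A further set of ATP-driven exporters on the basolateral membrane returns bile acids and conjugates to the blood and is known to be raised when bile flow is blocked. Many of these genes are known targets of nuclear receptors, among them the bile acid receptor FXR, encoded by Nr1h4, and the xenobiotic receptors PXR and CAR. The OATPs of the Slco1a and Slco1b groups lie side by side in the mouse genome, and some of them are known to depend on growth hormone and sex.

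The libraries came from liver of 6 female SJL/J mice aged 11 weeks, 3 fed an AIN-93G control diet with 50 ppm iron and 3 moved at 6 weeks of age to an AIN-93G diet with 2% carbonyl iron. RNA from a piece of the large lobe of each liver, taken after a fast and perfusion with buffer, went into both a whole transcript library (KAPA Stranded mRNA-Seq, Trad-KAPA) and a library of transcript 3’ ends (Lexogen QuantSeq FWD, 3’-LEXO), which gave 12 libraries in 4 groups of 3. All mice of 1 diet lived in 1 cage, and the effects of cage and diet cannot be told apart. In bulk liver, fewer hepatocytes and less RNA per hepatocyte cannot be told apart either. Levels are in CPM, which are counts scaled so that every library sums to 1000000. A gene is said to be called when its adjusted p in the edgeR fit across all genes was under 0.05, and fold changes are given as log2 of iron-loaded over control with their standard error.

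Trad-KAPA libraries held between 13834682 and 16553616 counts, and 3’-LEXO libraries between 10724672 and 14104236. Hamp, the iron hormone hepcidin, had means of 214 CPM on the control diet and 1141 CPM on the iron-loaded diet in Trad-KAPA, with a log2 fold change of 2.36 ± 0.77, and 2.53 ± 0.62 in 3’-LEXO. Control mouse 1 had 515 CPM there, against 44 and 83.2 CPM in control mice 2 and 3, and without it the log2 fold changes were 4.06 ± 0.34 and 3.90 ± 0.24, both called. With all mice, Hamp by edgeR was not called in Trad-KAPA (adjusted p = 0.0667) and was called in 3’-LEXO (adjusted p = 0.0425), where the call was lost without any 1 of control mice 2 and 3 and iron-loaded mice 2 and 3. Of 4 genes known to respond to iron, 3 of 4 tested were called higher in Trad-KAPA and 2 of 3 tested in 3’-LEXO, among them Smad7 in both. Smad7 lost its call without control mouse 2 or 3 in Trad-KAPA (1.68 to 2.24 over the alternative fits) and without any 1 mouse other than iron-loaded mouse 1 in 3’-LEXO (1.32 to 1.98). Among 7 hepatocyte markers, none of which was at 0, Ass1 was called lower in both kits, and 1 other gene was called, higher and in 3’-LEXO only. The call of Ass1 was lost without control mouse 1 or 3 or iron-loaded mouse 2 or 3 in Trad-KAPA (-0.88 to -0.54 over the alternative fits), and without any 1 mouse other than iron-loaded mouse 1 in 3’-LEXO (-0.72 to -0.57). The summed level of the 7 markers in Trad-KAPA was between 140654 and 151477 CPM on the control diet. It was 147390 and 151847 CPM in iron-loaded mice 2 and 3, but 111251 CPM in iron-loaded mouse 1. In 3’-LEXO it was between 55014 and 69365 CPM on the control diet, and 43767, 64765 and 62598 CPM in iron-loaded mice 1, 2 and 3. Most of each sum was Alb, so that the sums do not describe the other markers. In Trad-KAPA Alb had 119514 to 132418 CPM on the control and 93071 to 134719 CPM on the iron-loaded diet. In 3’-LEXO Alb had 42122 to 55988 CPM and 34242 to 52396 CPM. Iron-loaded mouse 1 stood apart from mice 2 and 3 across the genes of the table and in several of the transporters. For these transporters the values without it are given beside them.

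In Trad-KAPA, 3 of the 10 transporters were called higher on the iron-loaded diet and 2 lower, where 8.77% and 8.37% of all 13151 genes tested were called higher and lower (17.1% in all). In 3’-LEXO, 1 was called higher and 2 lower, beside 3.17% and 2.92% of 13301 genes (6.10% in all). Abcc4 was higher, and Slco1a1 and Abcb11 lower, in both kits, while of the 12229 genes tested in both kits 2.67% were called higher and 2.55% lower in both (5.23% in all). For 8 of the 10 genes the 3 libraries of one diet lay apart from the 3 of the other in both kits, as did 22.9% of the genes tested in both. Slc10a1 and Slco1b2 were the genes whose libraries overlapped. As the genes were chosen with such values known, nothing is read from these counts. Across the 10 genes the median log2 fold change was 0.22 (Trad-KAPA) and 0.18 (3’-LEXO), beside 0.02 and 0.01 for all genes tested.

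**Figure D1:**
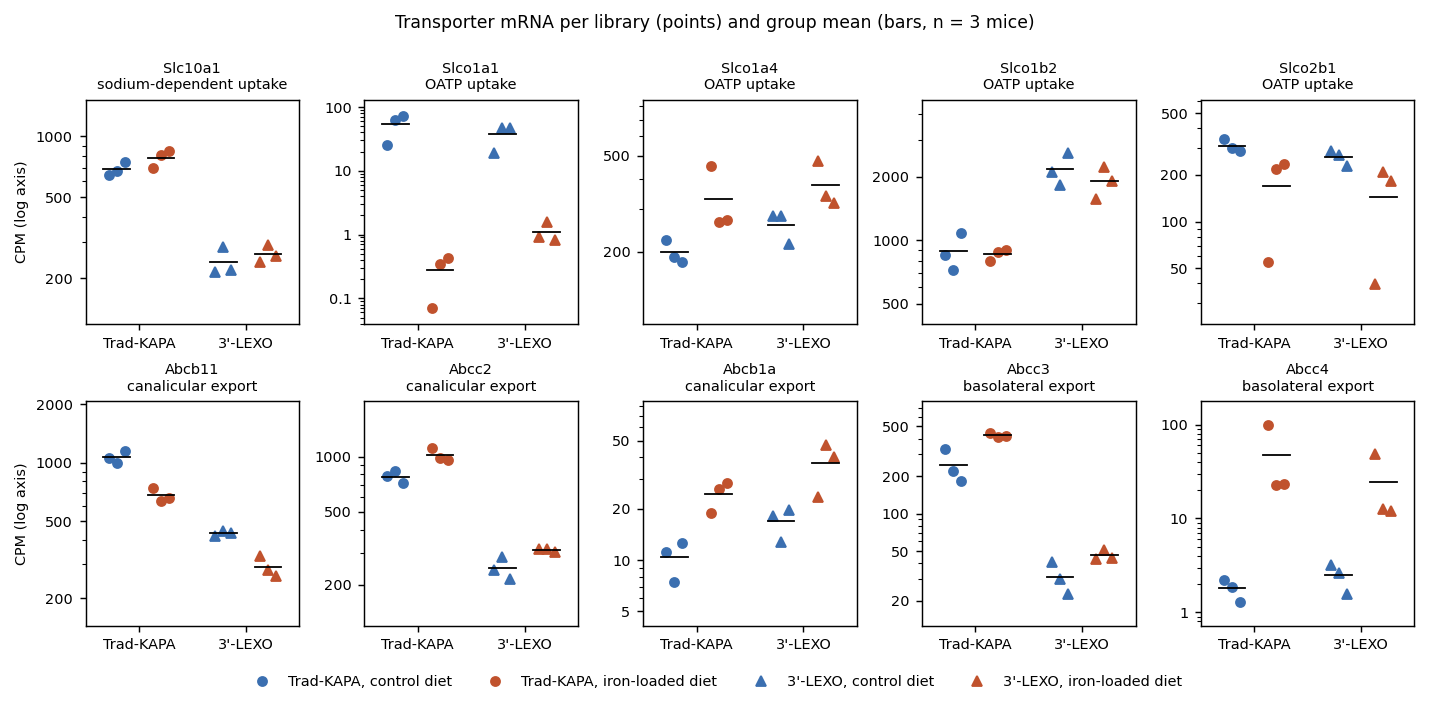
CPM of each transporter (log axis, with its own scale in each panel) in the 12 libraries, circles for Trad-KAPA and triangles for 3’-LEXO, blue for the control and red for the iron-loaded diet, with bars at the mean of 3 mice. Slco1a1 fell from 25.6 or more to 0.431 or less CPM in Trad-KAPA, Abcc4 rose from 2.24 or less to 22.9 or more CPM, and the libraries of Slc10a1 and Slco1b2 overlap between the diets.

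The promoters of the 2 genes called lower in both kits and of the gene called higher in both are shown because these 3 genes carry the differences described here. RefSeq windows of the 250 bases before the start of transcription (build GRCm38.p6) were matched by symbol for 9 of the 10 genes, Abcc3 being the missing entry. The start used by RefSeq lies 92986 bp from the GENCODE start of the gene for Abcb1a, 116 bp for Abcc2 and 21 bp for Slco1a4, and is the same for the other 6. Each sequence is written 5’ to 3’ on the strand of the gene, which is the minus strand for all 3, and capitals mark the nuclear receptor hexamer AGGTCA or its reverse complement TGACCT.
Slco1a1, chr6:141946963-141947212: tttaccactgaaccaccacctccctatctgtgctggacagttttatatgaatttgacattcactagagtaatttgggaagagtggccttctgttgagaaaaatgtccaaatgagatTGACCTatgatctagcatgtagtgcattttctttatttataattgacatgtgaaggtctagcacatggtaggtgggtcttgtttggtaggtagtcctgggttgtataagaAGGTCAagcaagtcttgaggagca
Abcb11, chr2:69342617-69342866: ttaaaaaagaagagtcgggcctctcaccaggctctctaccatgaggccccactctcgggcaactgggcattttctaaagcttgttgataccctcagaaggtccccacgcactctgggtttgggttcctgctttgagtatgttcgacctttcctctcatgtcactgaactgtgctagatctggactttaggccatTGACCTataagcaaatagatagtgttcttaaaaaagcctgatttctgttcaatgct
Abcc4, chr14:118706220-118706469: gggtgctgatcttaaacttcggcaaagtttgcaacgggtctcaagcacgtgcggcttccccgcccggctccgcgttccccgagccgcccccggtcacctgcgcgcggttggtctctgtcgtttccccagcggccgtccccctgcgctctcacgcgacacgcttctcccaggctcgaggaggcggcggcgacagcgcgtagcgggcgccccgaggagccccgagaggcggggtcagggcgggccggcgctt
The hexamer was found at positions -134 and -24 of Slco1a1 and at -56 of Abcb11, counted back from the start, and was not found in the window of Abcc4. On either strand it was in 4 of the 9 windows (also in those of Slco1b2 and Abcc2) and in 14% of all 32851 windows of this length. GTTAAT, a hexamer bound by HNF1, was in the window of Slco1b2 and in 6.43% of all windows. TGACNNNGC, the core of the antioxidant response element, was in the windows of Abcc2 and Abcc4 and in 10.2% of all windows. The window of Abcc4 shown above holds this core as GCGGGGTCA, its reverse complement, at -25. These matches are letters in a window and no measurement of binding was made.

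Slc10a1 (ENSMUSG00000021135), which encodes NTCP, the main sodium-dependent carrier of conjugated bile acids, lies on chromosome 12 of GRCm38 from 80953183 to 80968705 on the minus strand. In Trad-KAPA it had 649, 672 and 746 CPM in control mice 1, 2 and 3 and 699, 812 and 843 CPM in the iron-loaded mice. In 3’-LEXO it had 214, 285 and 219 CPM and then 240, 293 and 257 CPM. The diets overlapped in both kits, and the log2 fold changes were 0.12 ± 0.14 and 0.09 ± 0.17. The gene was called in none of the 13 alternative fits of either kit.

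Slco1a1 (ENSMUSG00000041698), an OATP of the hepatocyte that carries bile acids, steroid conjugates and other organic anions, lies on chromosome 6 from 141907282 to 141946962 on the minus strand. In Trad-KAPA it had 423, 945 and 1002 reads (25.6, 63.3 and 72.4 CPM) in the control mice and 1, 5 and 6 reads (0.0714, 0.342 and 0.431 CPM) in the iron-loaded mice. In 3’-LEXO the control mice had 263, 649 and 666 reads (18.8, 46.4 and 47.2 CPM) and the iron-loaded mice 12, 17 and 9 reads (0.92, 1.59 and 0.818 CPM). Every iron-loaded library was far below every control library, and control mouse 1 was the lowest control in both kits. The mean CPM was 191 times lower on the iron-loaded diet in Trad-KAPA and 33.8 times lower in 3’-LEXO, and the log2 fold changes were -7.61 ± 0.61 and -5.14 ± 0.43. It was called in all 13 alternative fits of each kit, with log2 fold changes between -8.03 and -7.13 in Trad-KAPA and between -5.50 and -4.91 in 3’-LEXO.

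The reads left in the iron-loaded mice were few, and their number limits the fold. Summed over the 3 mice, 12 reads in Trad-KAPA gave 0.282 CPM with an exact 95% Poisson interval of 0.146 to 0.493 CPM. In 3’-LEXO, 38 reads gave 1.09 CPM (0.774 to 1.5 CPM). These intervals cover counting error only. Of the stretches of 50 bases in the exons of Slco1a1, 1.64% also occur in other genes, namely Slco1a4, Slco1a5, Slco1a6, Gm5724 and Gm6614, and reads there could not be assigned uniquely.

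Slco1a4 (ENSMUSG00000030237), an OATP known to carry digoxin and bile acids, lies beside it, on chromosome 6 from 141805440 to 141856199 on the minus strand. Its levels in Trad-KAPA were 224, 191 and 181 CPM in the control mice and 454, 265 and 272 CPM in the iron-loaded mice. In 3’-LEXO they were 280, 280 and 215 CPM and 473, 339 and 318 CPM. The iron-loaded libraries were above the control libraries in both kits, with iron-loaded mouse 1 the highest. The log2 fold changes, 0.65 ± 0.19 for Trad-KAPA and 0.48 ± 0.18 for 3’-LEXO, were not called. In Trad-KAPA it lay so near the threshold that 7 of 13 alternative fits called it, against 0 of 13 in 3’-LEXO. Without iron-loaded mouse 1 the log2 fold changes were 0.40 ± 0.10, which was called, and 0.31 ± 0.15.

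Slco1b2 (ENSMUSG00000030236), the rodent counterpart of the human liver carriers OATP1B1 and OATP1B3, lies in the same cluster on the plus strand, on chromosome 6 from 141629518 to 141686646. It had 851, 721 and 1087 CPM in the control mice and 798, 883 and 900 CPM in the iron-loaded mice in Trad-KAPA. In 3’-LEXO it had 2121, 1827 and 2586 CPM and 1580, 2232 and 1919 CPM. The diets overlapped, with log2 fold changes of -0.12 ± 0.18 and -0.25 ± 0.22. Within 200000 bp of these 3 genes the table holds 7 protein-coding genes. The other 4 had few reads: Pde3a had 358 in all Trad-KAPA and 175 in all 3’-LEXO libraries and was not called, with log2 fold changes of -0.08 ± 0.24 and -0.50 ± 0.32, and Slco1c1, Gm5724 and Slco1a6 had between 0 and 6 reads in all libraries of a kit and were not tested. Of the 3 neighbouring transporters, Slco1a1 was called lower in both kits, Slco1a4 was higher without overlap but not called, and Slco1b2 overlapped between the diets.

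Slco2b1 (ENSMUSG00000030737), an OATP known to carry sulfated steroids and several drugs, lies on chromosome 7 from 99657804 to 99711340 on the minus strand. Its levels in Trad-KAPA were 340, 298 and 284 CPM in the control mice and 54.9, 220 and 234 CPM in the iron-loaded mice. In 3’-LEXO they were 286, 271 and 227 CPM and 39.3, 208 and 184 CPM. All iron-loaded libraries were below the control libraries, and iron-loaded mouse 1 was 4.13 times below the mean of mice 2 and 3 in Trad-KAPA and 4.98 times in 3’-LEXO. The log2 fold changes were -0.91 ± 0.45 and -0.90 ± 0.47 and were not called. Without mouse 1 they were -0.47 ± 0.10, which was called, and -0.45 ± 0.15, which was not. Exons of the antisense genes Gm15635 and Gm34280 overlap those of Slco2b1, and 5.89% of its 50-base stretches occur in them. The strand setting of the counting is not given in the sources used here, so that reads of these genes may be mixed.

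Abcb11 (ENSMUSG00000027048) encodes BSEP, the exporter that moves conjugated bile acids into bile, and lies on chromosome 2 from 69238282 to 69342616 on the minus strand. In Trad-KAPA it had 1056, 999 and 1149 CPM in the control mice and 742, 637 and 661 CPM in the iron-loaded mice. In 3’-LEXO it had 419, 447 and 435 CPM and 330, 280 and 260 CPM. The diets did not overlap in either kit, and the log2 fold changes were -0.73 ± 0.13 and -0.64 ± 0.15. The gene was called in all 13 alternative fits in Trad-KAPA (-0.79 to -0.64) and in 7 of 13 in 3’-LEXO (-0.73 to -0.60). In 3’-LEXO the call was lost with the replicate number as a block and without control mouse 1, 2 or 3 or iron-loaded mouse 2 or 3. The antisense genes Gm13613 and Gm13614 overlap its exons, and 1.68% of its 50-base stretches occur in Gm13613.

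Abcc2 (ENSMUSG00000025194) encodes MRP2, the canalicular exporter of bilirubin glucuronides and glutathione conjugates, and lies on chromosome 19 from 43782192 to 43840740 on the plus strand. Its levels in Trad-KAPA were 788, 835 and 715 CPM in the control mice and 1110, 982 and 964 CPM in the iron-loaded mice. In 3’-LEXO they were 242, 283 and 216 CPM and 315, 314 and 302 CPM. The iron-loaded libraries were above the control libraries in both kits, by log2 fold changes of 0.32 ± 0.12 and 0.27 ± 0.15 that were not called. DESeq2 called it in Trad-KAPA, and it was called in no other alternative fit.

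Abcb1a (ENSMUSG00000040584) encodes a P-glycoprotein, a drug exporter of the canalicular membrane, and lies on chromosome 5 from 8660077 to 8748575 on the plus strand. It had 11.1, 7.43 and 12.6 CPM in the control mice and 18.8, 26.1 and 28.4 CPM in the iron-loaded mice in Trad-KAPA. In 3’-LEXO it had 18.1, 12.8 and 19.8 CPM and 23.4, 47.3 and 40.5 CPM. The iron-loaded libraries lay above the control libraries in both kits, with iron-loaded mouse 1 the lowest of them. The log2 fold changes were 1.17 ± 0.24, which was called, and 1.07 ± 0.28, which was not. In Trad-KAPA the call was lost without control mouse 1 or 2, and in 3’-LEXO 4 of 13 alternative fits called it. Without iron-loaded mouse 1 the value in 3’-LEXO was 1.33 ± 0.20 and was called. Of its 50-base stretches, 22.5% occur in Abcb1b, Abcb4 or Gm42686, so that its counts are uncertain where reads of these genes cannot be separated.

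Abcc3 (ENSMUSG00000020865) encodes MRP3, a basolateral exporter of glucuronides and bile acids, and lies on chromosome 11 from 94343295 to 94392997 on the minus strand. In Trad-KAPA it had 329, 221 and 183 CPM in the control mice and 440, 414 and 419 CPM in the iron-loaded mice. In 3’-LEXO it had 41, 30.1 and 22.8 CPM and 43.6, 51.1 and 44 CPM. The diets lay apart in both kits, although control mouse 1 and iron-loaded mouse 1 were close in 3’-LEXO. The log2 fold changes were 0.73 ± 0.19, called, and 0.51 ± 0.20, not called. In Trad-KAPA the call was lost without control mouse 2 or 3 and without iron-loaded mouse 2 or 3, and in 3’-LEXO no alternative fit called it.

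Abcc4 (ENSMUSG00000032849) encodes MRP4, a basolateral exporter of bile acids, cyclic nucleotides and sulfated steroids, and lies on chromosome 14 from 118482692 to 118706219 on the minus strand. The control mice had 37, 28 and 18 reads in Trad-KAPA (2.24, 1.88 and 1.3 CPM) and the iron-loaded mice 1371, 335 and 322 reads (97.9, 22.9 and 23.1 CPM). In 3’-LEXO the control mice had 45, 37 and 22 reads (3.22, 2.65 and 1.56 CPM) and the iron-loaded mice 642, 134 and 131 reads (49.2, 12.5 and 11.9 CPM). Every iron-loaded library was above every control library, and iron-loaded mouse 1 was 4.25 times above the mean of mice 2 and 3 in Trad-KAPA and 4.04 times in 3’-LEXO. The mean CPM was 26.6 times higher on the iron-loaded diet in Trad-KAPA and 9.92 times higher in 3’-LEXO, with log2 fold changes of 4.62 ± 0.64 and 3.24 ± 0.55. Without iron-loaded mouse 1 they were 3.62 ± 0.17 and 2.26 ± 0.26 and were still called. In 3’-LEXO the call was lost without control mouse 2 (3.26 ± 0.71) or control mouse 3 (3.01 ± 0.65).

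**Figure D2:**
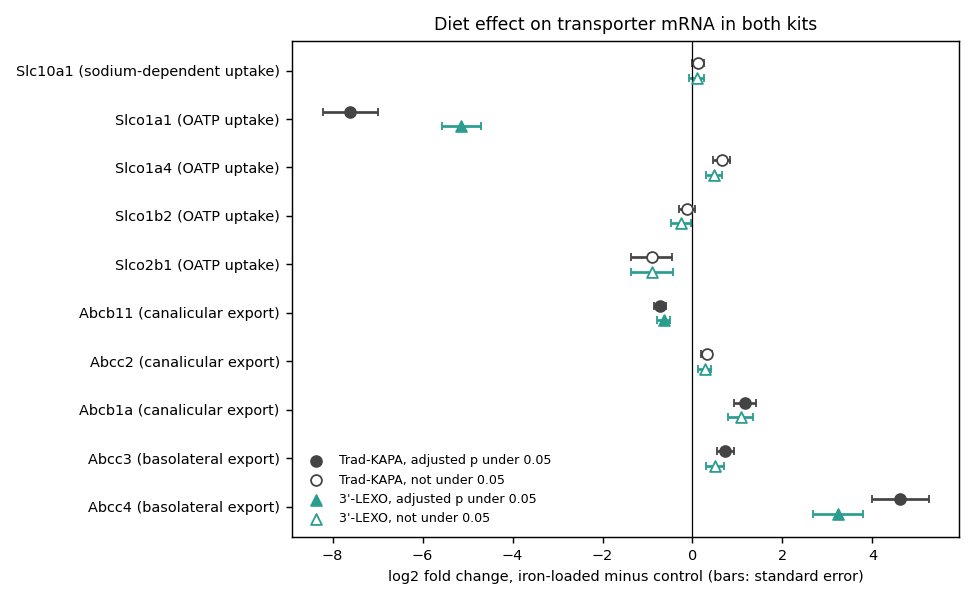
Log2 fold change of each transporter, iron-loaded minus control, with its standard error from edgeR, circles for Trad-KAPA and triangles for 3’-LEXO, filled where the adjusted p over all genes was under 0.05. The filling is a description, as these genes were chosen with results of these data known. The values run from -7.61 for Slco1a1 to 4.62 for Abcc4 in Trad-KAPA, and Slco1a1 and Abcc4 are nearer to 0 in 3’-LEXO, at -5.14 and 3.24.

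Levels of different genes were compared per length in Trad-KAPA, as RPKM (CPM divided by the kilobases of merged exons). On the control diet Slc10a1 was the highest at 313 ± 22.9 RPKM (SD, n = 3), followed by Abcb11 at 208 ± 14.7, Slco1b2 at 180 ± 37.6, Abcc2 at 91.3 ± 7.07, Slco2b1 at 51.6 ± 4.85, Abcc3 at 42.9 ± 13.3, Slco1a4 at 31 ± 3.53, Slco1a1 at 10.2 ± 4.71, Abcb1a at 1.89 ± 0.484 and Abcc4 at 0.282 ± 0.0737. The libraries of Abcb11 and Slco1b2, of Slco2b1 and Abcc3, and of Abcc3 and Slco1a4 overlapped, so that these neighbours are not ordered beyond their spread.

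On the iron-loaded diet the order was Slc10a1 (357 ± 34.5 RPKM), Slco1b2 (175 ± 11.1), Abcb11 (132 ± 10.6), Abcc2 (119 ± 9.33), Abcc3 (74.4 ± 2.4), Slco1a4 (51.5 ± 16.7), Slco2b1 (28.4 ± 16.7), Abcc4 (7.51 ± 6.77), Abcb1a (4.46 ± 0.916) and Slco1a1 (0.0533 ± 0.0355). Overlapping neighbours were Abcb11 and Abcc2, Slco2b1 and Abcc4, and Abcc4 and Abcb1a. Slco1a1 moved from the 8th to the 10th place and Abcc4 from the 10th to the 8th. The place of Abcc4 rests on iron-loaded mouse 1, which had 15.3 RPKM, while mice 2 and 3 had 3.58 and 3.62 RPKM. Without mouse 1, an alternative chosen after seeing the data, Abcc4 was in the 9th place at 3.6 RPKM, below Abcb1a at 4.97 RPKM, and Slco1a1 remained in the 10th. With the length of the longest transcript in place of merged exons, Slco1b2 stood above Abcb11 on the control diet as well (268 against 213 RPKM, still overlapping), and Slco1a4 stood above Abcc3 on both diets.

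**Figure D3:**
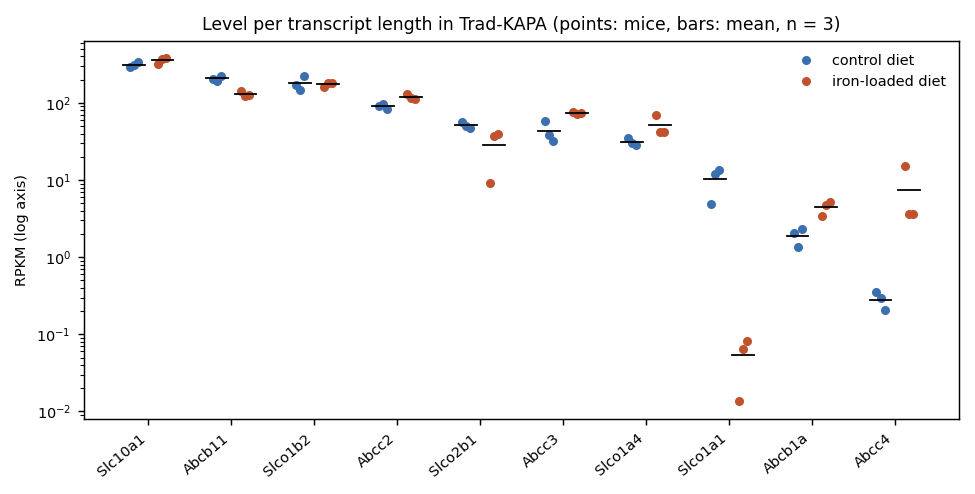
RPKM of each transporter in Trad-KAPA (log axis), blue for control and red for iron-loaded mice, with bars at the mean of 3 mice, in the order of the control means. Levels on the control diet run from 313 RPKM for Slc10a1 to 0.282 RPKM for Abcc4, and on the iron-loaded diet the lowest is Slco1a1 at 0.0533 RPKM.

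By role, the 3 canalicular exporters summed to 301 ± 8.1 RPKM on the control diet and 256 ± 18.8 RPKM on the iron-loaded diet. Of this sum Abcb11 made up 69 ± 3.02% and then 51.6 ± 0.681%, and Abcc2 made up 30.4 ± 3.15% and then 46.6 ± 0.727%, with no overlap between the diets. The 4 OATPs summed to 273 ± 36.1 and 255 ± 11.5 RPKM, which overlapped, and Slco1b2 made up 65.5 ± 5% and 68.5 ± 1.41% of them. The share of Slco1a1 was 3.75 ± 1.72% on the control diet and 0.0206 ± 0.0133% on the iron-loaded diet. The 2 basolateral exporters summed to 43.1 ± 13.4 and 81.9 ± 9.14 RPKM, of which Abcc4 made up 0.662 ± 0.079% and 8.66 ± 6.85%. The latter share was 16.6% in iron-loaded mouse 1 and 4.7% in each of mice 2 and 3. Abcc3 made up at least 83.4% of this sum in every mouse.

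The level that each kit gave for a transporter was tested over all 12 libraries with edgeR, a comparison that does not set the diets against each other. Whether these levels entered the selection of the 10 genes is not recorded, and the p-values are read with that limit. The paper reports that Trad-KAPA gave more reads to longer transcripts, while 3’-LEXO appeared not to depend on length. The ratios of the kits may therefore also reflect transcript length and do not rank the genes by level. Of the 10 genes, 4 were called lower and 2 higher in 3’-LEXO, where 37.8% and 39.2% of all 14384 genes were called lower and higher (77.0% in all). Abcc3 was lower by the most, with a log2 ratio of -3.07 ± 0.15 (edgeR, adjusted p = 9.81e-11), followed by Abcc2 at -1.68 ± 0.08 (adjusted p = 5.29e-11), Slc10a1 at -1.55 ± 0.10 (adjusted p = 2.39e-09) and Abcb11 at -1.26 ± 0.09 (adjusted p = 3.24e-09). Slco1b2 was higher at 1.23 ± 0.15 (adjusted p = 1.60e-06), as was Abcb1a at 0.66 ± 0.20 (adjusted p = 0.00719). All 6 of these calls held in each of the 9 alternative fits, and each of the 6 mice showed the same direction.

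The other 4 transporters were nearer in level, and here the pairing of libraries of 1 mouse changed the calls. Slco1a4 had a log2 ratio of 0.29 ± 0.13 (edgeR, adjusted p = 0.0549), and 0.30 ± 0.06 with the mouse as a block (adjusted p = 0.000159). Slco2b1 was at -0.24 ± 0.36 (adjusted p = 0.556), and at -0.26 ± 0.06 with the block (adjusted p = 0.000515). Abcc4 was at -0.49 ± 0.47 (adjusted p = 0.35), and at -0.62 ± 0.17 with the block (adjusted p = 0.00246). Slco1a1 was not called in either fit, at -0.18 ± 0.40 (adjusted p = 0.693) and -0.34 ± 0.18 with the block (adjusted p = 0.088). With the block, 41.9% of all genes were called higher and 40.8% lower (82.6% in all).

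The log2 ratio of 3’-LEXO to Trad-KAPA within a mouse spanned at most 0.54 over the 6 mice for 8 of the 10 genes, and more for Abcc4 and Slco1a1. For Abcc2 it was between -1.82 and -1.56. For Abcc3 it was between -3.00 and -2.87 in the control mice and between -3.33 and -3.02 in the iron-loaded mice, which did not overlap. Abcc4 gave 0.52, 0.50 and 0.26 in the control mice and -0.99, -0.87 and -0.96 in the iron-loaded mice, with means of 0.43 ± 0.14 and -0.94 ± 0.06 (SD, n = 3). Slco1a1 gave -0.44, -0.45 and -0.62 in the control mice and 3.69, 2.21 and 0.92 in the iron-loaded mice, where the first of these rests on 1 Trad-KAPA read. For Abcc4 and Slco1a1 the diets did not overlap, and the smaller of the 2 diet effects was that in 3’-LEXO.

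Whether the diet effects themselves differed between the kits was asked with the interaction of diet and kit. Over 14384 genes edgeR called 0% of genes, with 402 at an unadjusted p under 0.05. This fit took the libraries of a mouse as independent, so that the spread between mice entered its error. The 0% therefore does not show that the diet effects were equal in the kits. With the mouse as a block edgeR called 5 genes (0.0348%), of which 4 had a positive difference (0.0278%) and 1 a negative one (0.00695%). Abcc4 and Slco1a1 are among the 5, and the others are Mup9, Mup3 and Serpina1e, which encode major urinary proteins and an alpha-1-antitrypsin. The difference in log2 fold change, 3’-LEXO minus Trad-KAPA, was 2.47 ± 0.43 for Slco1a1 and -1.39 ± 0.22 for Abcc4 with the block, and 2.46 ± 0.99 and -1.38 ± 0.96 without it, when neither was called. For the other 8 transporters the difference lay between -0.23 and 0.07 with the block, and none was called. For the transporters, chosen with results of these data known, these calls are a description and not a test.

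**Figure D4:**
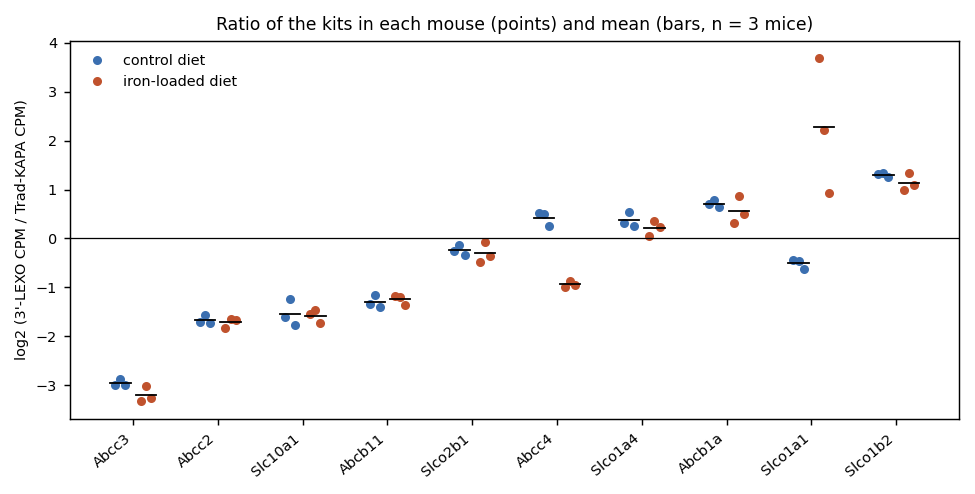
Log2 ratio of 3’-LEXO CPM to Trad-KAPA CPM in each of the 6 mice, blue for control and red for iron-loaded mice, with bars at the mean of 3 mice, ordered by the mean over 6. The diets overlap or lie close for 8 genes, while Abcc4 has means of 0.43 and -0.94 and Slco1a1 means of -0.50 and 2.28.

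The genes whose levels followed the 2 extreme transporters most closely were sought among 9311 genes with at least 50 counts on average in each kit. Likeness was the lower of the Pearson r of log2 CPM in the 2 kits over the same 6 mice, which is a description and mostly reflects the difference between the diets. For Abcc4 they were Clip1, which encodes a protein of growing microtubules (0.990), Sgk1, a kinase that responds to serum and glucocorticoids (0.990), and Gnl3, a nucleolar GTP-binding protein (0.988). For Slco1a1 they were Tjp3, a tight junction protein (0.993), Dio1, the deiodinase that converts thyroxine (0.987), and Mup3, a major urinary protein (0.984). Between the diets, Clip1 had log2 fold changes of 0.55 ± 0.10 (Trad-KAPA) and 0.64 ± 0.15 (3’-LEXO), and Sgk1 had 1.94 ± 0.24 and 1.31 ± 0.23. Dio1 had -2.68 ± 0.28 and -2.82 ± 0.23, and Mup3 -5.80 ± 0.51 and -4.71 ± 0.44. Clip1, Sgk1 and Gnl3 were called higher and Tjp3, Dio1 and Mup3 lower in both kits. As these genes were picked for following the 2 transporters over the same mice, their direction was set by the choice. Their calls are a description and no further test. In 3’-LEXO the call was lost without control mouse 2 or 3 for Sgk1 (1.04 to 1.45 over the alternative fits), also without control mouse 1 for Gnl3 (0.95 to 1.47), and without any control mouse or iron-loaded mouse 3 for Clip1 (0.52 to 0.70), and in Trad-KAPA Gnl3 lost it without control mouse 3 (0.89 to 1.33).

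Other genes of bile acid handling were read from the same fits, beside the 17.1% and 6.10% of all genes called in Trad-KAPA and 3’-LEXO. Of 17 genes of bile acid synthesis and conjugation, 1 was called higher and 5 lower of 17 tested in Trad-KAPA, and 1 higher and 2 lower of 16 tested in 3’-LEXO, with a median log2 fold change of -0.32 and -0.27. Cyp8b1, the 12-alpha-hydroxylase needed for cholic acid, fell, with a log2 fold change of -1.05 ± 0.10 in Trad-KAPA (edgeR, adjusted p = 0.00149) and -1.02 ± 0.15 in 3’-LEXO (adjusted p = 0.00556). Its Trad-KAPA levels were 612, 603 and 543 CPM in the control mice and 304, 286 and 300 CPM in the iron-loaded mice, without overlap.

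Cyp7b1, the oxysterol hydroxylase of the alternative pathway, fell too, with log2 fold changes of -1.20 ± 0.20 (edgeR, adjusted p = 0.00908) and -1.19 ± 0.26 (adjusted p = 0.0304). The call in 3’-LEXO was lost without control mouse 1, 2 or 3 (-1.38 to -0.90 over the alternative fits). Cyp39a1, a hydroxylase of 24-hydroxycholesterol, rose by 2.42 ± 0.47 (adjusted p = 0.014) and 2.17 ± 0.40 (adjusted p = 0.0169). In both kits this call was lost without control mouse 1 or 2. In Trad-KAPA, Cyp39a1 had 23.1, 13.3 and 27.9 CPM in the control mice and 226, 67.1 and 76.8 CPM in the iron-loaded mice, so that iron-loaded mouse 1 was the highest, as it was for Abcc4. Without that mouse it was still called, with log2 fold changes of 1.71 ± 0.25 and 1.61 ± 0.28. Cyp7a1, the rate-limiting enzyme of the classic pathway, had 0.95 ± 0.38 and 0.99 ± 0.43 and was not called (edgeR, adjusted p = 0.115 and 0.188). Without control mouse 2 it was called in both kits, at 1.60 ± 0.20 and 1.85 ± 0.20. Its control levels in Trad-KAPA spread from 152 to 486 CPM, while the iron-loaded mice had 498 to 597 CPM.

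The regulators of transporter genes showed a called fall of Nr0b2 and no call for Nr1h4. Of 22 regulators, 2 were called higher and 5 lower of 21 tested in Trad-KAPA, and 1 higher and 3 lower of 21 in 3’-LEXO (median log2 fold change -0.19 and -0.21). Of all genes tested, 17.1% and 6.10% were called in the 2 kits. Nr0b2, which encodes the repressor SHP and is a known target of FXR, had log2 fold changes of -1.79 ± 0.22 (edgeR, adjusted p = 0.00363) and -1.71 ± 0.24 (adjusted p = 0.0044). Its levels in Trad-KAPA were 18.1, 19.5 and 26.3 CPM in the control mice and 5.14, 6.83 and 7.47 CPM in the iron-loaded mice, and it was called in all 13 alternative fits of each kit.

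Foxa2, a forkhead factor of the hepatocyte, was called lower at -0.68 ± 0.20 (edgeR, adjusted p = 0.0479) and -0.88 ± 0.21 (adjusted p = 0.0408), with 8 of 13 alternative fits calling it in each kit. The fits that did not call it were those without control mouse 1 or 3 or iron-loaded mouse 2 or 3 in both kits, without control mouse 2 in Trad-KAPA, and with the replicate number as a block in 3’-LEXO (-0.82 to -0.42 and -1.04 to -0.61 over the alternatives). Nr1h4 itself had log2 fold changes of 0.12 ± 0.11 (adjusted p = 0.493) and 0.02 ± 0.15 (adjusted p = 0.939). Its levels were 86.9, 102 and 102 CPM in the control mice and 114, 105 and 112 CPM in the iron-loaded mice in Trad-KAPA.

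The transporters outside the 10 genes were read beside the 17.1% and 6.10% of all genes called in Trad-KAPA and 3’-LEXO. Of 7 other canalicular exporters, 6 were tested in each kit and 1 was called higher in each, with a median log2 fold change of 0.22 and 0.24. Of 10 other basolateral carriers, 7 were tested in each kit, and 1 was called higher and 2 lower in Trad-KAPA and 1 higher and 0 lower in 3’-LEXO (medians 0.31 and 0.50). In neither list was a gene called in both kits. All 8 genes of canalicular scaffold and trafficking were tested, and edgeR called 0 in either kit (2 and 1 at an unadjusted p under 0.05, and 1 and 0 by DESeq2), with log2 fold changes between -0.34 and 0.28 (Trad-KAPA) and between -0.42 and 0.20 (3’-LEXO).

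**Figure D5:**
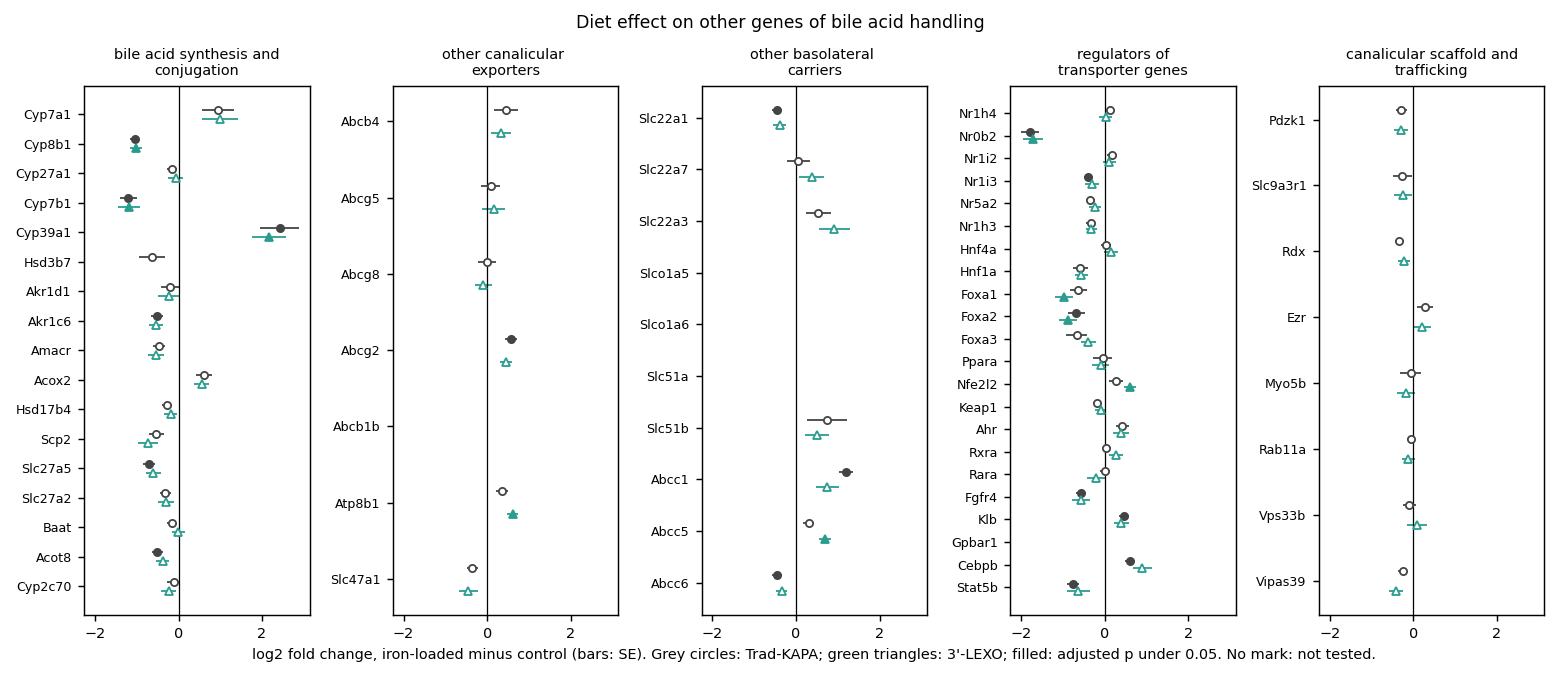
Log2 fold change, iron-loaded minus control, with standard error from edgeR, for 5 lists of other genes of bile acid handling, grey circles for Trad-KAPA and green triangles for 3’-LEXO, filled where the adjusted p over all genes was under 0.05. Cyp39a1 is highest at 2.42 and 2.17 and Nr0b2 lowest at -1.79 and -1.71, and genes with no mark were not tested.

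A list of enzymes that mixes targets of PXR and CAR with targets of AHR, NRF2 and PPAR-alpha was called in both directions. Its counts do not stand for any 1 of these regulators. Of 18 genes, 5 were called higher and 2 lower of 17 tested in Trad-KAPA, and 3 higher and 1 lower of 16 tested in 3’-LEXO, with a median log2 fold change of 0.29 in both. Over all genes tested the shares called were 17.1% and 6.10%. Nqo1, a quinone reductase and known target of NRF2, rose by 1.43 ± 0.15 (edgeR, adjusted p = 0.00188) and 1.37 ± 0.20 (adjusted p = 0.00561). Srxn1, which repairs oxidized peroxiredoxins, rose by 0.74 ± 0.17 (adjusted p = 0.0222) and 0.89 ± 0.18 (adjusted p = 0.0228). The call of Srxn1 was lost without control mouse 1, 2 or 3 in Trad-KAPA (0.55 to 0.82) and without control mouse 2 or 3 or iron-loaded mouse 3 in 3’-LEXO (0.72 to 0.99). In the same list Gclc (-0.06 ± 0.29 and -0.14 ± 0.25), Gclm (0.02 ± 0.13 and 0.06 ± 0.17) and Txnrd1 (0.29 ± 0.15 and 0.35 ± 0.19) were not called in either kit. Hmox1 (1.43 ± 0.21 and 0.89 ± 0.33) and Gsta2 (2.14 ± 0.47 and 1.36 ± 0.38) were called higher in Trad-KAPA only.

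Cyp4a14, a fatty acid hydroxylase and known target of PPAR-alpha, rose by 2.98 ± 0.41 (edgeR, adjusted p = 0.00494) and 2.80 ± 0.31 (adjusted p = 0.00183). It had 594 CPM in iron-loaded mouse 1 and 281 and 288 CPM in mice 2 and 3 in Trad-KAPA, against 27.9 to 74.5 CPM in the control mice. Cyp4a10, of the same family and list, went the other way at -0.80 ± 0.40 and -0.95 ± 0.41 and was not called in either kit. Cyp1a2, an oxidase of aromatic amines and known target of AHR, was called lower at -0.73 ± 0.13 (adjusted p = 0.0106) and -0.76 ± 0.17 (adjusted p = 0.033). In 3’-LEXO its call was lost without any control mouse, without iron-loaded mouse 3 and with the replicate number as a block (-0.86 to -0.62). Cyp1a1, of the same family and list, was at 0.31 ± 0.32 in Trad-KAPA and was not called. In 3’-LEXO it was too low to be tested, with means of 0.333 CPM on the control and 0.892 CPM on the iron-loaded diet.

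Markers of other liver cells were checked beside the transporters, where 17.1% and 6.10% of all genes were called in Trad-KAPA and 3’-LEXO. Marco, a scavenger receptor of macrophages, was called higher at 3.10 ± 0.29 and 2.82 ± 0.33, as were Lyve1, a hyaluronan receptor of sinusoidal endothelium, at 1.77 ± 0.22 and 1.16 ± 0.28, and Spp1, a marker of cholangiocytes, at 0.65 ± 0.12 and 0.70 ± 0.14. In 3’-LEXO, Lyve1 and Spp1 lost their calls without any control mouse and with the replicate number as a block, Lyve1 also without iron-loaded mouse 1 (0.78) and Spp1 without iron-loaded mouse 3 (0.61 to 0.75 over the alternatives). Of 7 macrophage markers, Trad-KAPA had 2 called higher and 3’-LEXO 1, and their summed level was 309 to 493 CPM on the control and 561 to 609 CPM on the iron-loaded diet in Trad-KAPA, and 833 to 1085 and 1095 to 1340 CPM in 3’-LEXO. Of 7 cholangiocyte markers, 4 were tested and 1 was called higher in each kit, and their summed level was 50.1 to 51.7 CPM and 58.7 to 65.8 CPM in Trad-KAPA, and 39.7 to 47.2 and 51.4 to 51.9 CPM in 3’-LEXO. Of 6 endothelial markers, 1 was called higher in Trad-KAPA, and 1 higher and 1 lower in 3’-LEXO, with sums of 252 to 333 and 287 to 353 CPM in Trad-KAPA, and of 299 to 373 and 254 to 281 CPM in 3’-LEXO, where the iron-loaded libraries were lower without overlap.

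Of 6 stellate cell markers, edgeR called 0 in either kit (1 and 3 at an unadjusted p under 0.05, and 0 and 1 by DESeq2), and of 6 lymphocyte markers 1 was called higher in Trad-KAPA and 0 in 3’-LEXO (0 at an unadjusted p under 0.05 and 0 by DESeq2). The 5 red cell markers, of which 4 were tested, had a median log2 fold change of -1.86 and -1.90 with 0 called by edgeR (4 and 4 at an unadjusted p under 0.05, and 0 and 1 by DESeq2). The summed level of the red cell markers was 20.1 to 151 CPM on the control and 16.4 to 28.8 CPM on the iron-loaded diet in Trad-KAPA, and 162 to 1214 and 119 to 208 CPM in 3’-LEXO. None of these markers had 0 reads over all libraries of a group. The part of these cell types in the levels of the transporters was not tested.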

How the data were processed

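Liver RNA of 6 mice was measured in 12 libraries. The authors mapped single-end 50-base reads with STAR 2.5.3a to GRCm38 (mm10), per their methods and processing notes, and the deposited values are raw counts per gene of reads mapped uniquely to exons, with duplicates not removed. The counting program, its strand setting and the annotation release are not given in the sources used here. Of the 27022 gene identifiers, 26949 were found in GENCODE M21, which gave symbols, coordinates and lengths.

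Counts as deposited were tested in edgeR 4.0.16 (R 4.3.3, limma 3.58.1) with the quasi-likelihood F test, TMM factors (0.937 to 1.07), filterByExpr and Benjamini-Hochberg adjustment over all genes at 0.05, within each kit for the diet and over 12 libraries for kit and interaction. A standard error is the log2 fold change divided by the square root of F. The fits were also run on simulated counts with the same spread for all genes and no pairing of libraries by mouse. The simulation differs from these data in both, and nothing is read from it here. DESeq2 1.42.0, its size factors, upper quartile factors, other filters, 10000000 counts drawn per library, blocks and leaving out each mouse were alternatives. Replicates of a group differed by more than counting noise (chi-square per degree of freedom 5.97 to 59.8), and p-values measure the spread between mice of 1 cage.

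The same number in both kits names the same RNA. Deviations from the group means over 9311 genes correlated with r from 0.461 to 0.795 between the libraries of 1 mouse, and iron-loaded mouse 2 correlated slightly better with mouse 3 of the other kit (0.64) than with itself (0.554). The 10 genes and all gene lists were chosen with earlier results of these data known. By rule, the text names all 10 genes, genes of each list called in the same direction in both kits, Cyp7a1, Nr1h4 and Nr0b2, and the 3 genes most like the transporter with the largest rise and the largest fall. Hamp, Alb, Gclc, Gclm, Txnrd1, Hmox1, Gsta2, Cyp4a10, Cyp1a1 and genes of the Slco1 region were named outside this rule. Motifs were searched on both strands of RefSeq promoter windows.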

Additional observations from a re-analysis of the deposited data

Results flagged for a closer look

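Slco1a1 had a difference of its diet effects between the kits of 2.47 ± 0.43 on the log2 scale with the mouse as a block, and Abcc4 of -1.39 ± 0.22, where positive means a higher value in 3’-LEXO. Both are listed here because they were called in the edgeR interaction with the mouse as a block. They were also called with no filter, and in no other fit. Only the fit with the block paired the libraries of a mouse. The fits that left out a mouse did not use the block, so that the paired result was not checked in that way. The transporters were chosen with results of these data known, so these calls are a description and not a test of the difference. For both genes the diet effect was nearer to 0 in 3’-LEXO. The Slco1a1 value rests on 12 Trad-KAPA and 38 3’-LEXO reads in the iron-loaded mice. Abcc4 had 83 Trad-KAPA and 104 3’-LEXO reads in the control mice, and 2028 and 907 reads in the iron-loaded mice.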

How the results depend on the processing

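Leaving out 1 mouse moved the number of genes called for diet between 841 and 2803 in Trad-KAPA (2255 with all mice) and between 199 and 871 in 3’-LEXO (811), and that of transporters called between 3 and 7 (5) and between 1 and 4 (3). The count of genes fell by over 1.5 times without any 1 mouse other than iron-loaded mouse 1 in Trad-KAPA, and without any other than iron-loaded mice 1 and 2 in 3’-LEXO. The fewest transporters were called without control mouse 2 (also without control mouse 3 in 3’-LEXO), and the most without iron-loaded mouse 1. In 3’-LEXO, DESeq2 called 1321 genes and no filter 2040, and without the filter 5 transporters were called. The replicate number as a block between the diets, whose mice share only a number, called 436 genes there. For this pairing deviations correlated between -0.0104 and 0.0665 (Trad-KAPA) and between -0.174 and 0.106 (3’-LEXO).

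For the interaction, the mouse as a block gave 5 genes and no filter 7, with 2 transporters in each, against 0. Signs turned for 8 values that were smaller than their standard error. With 1 mouse left out, the diet effect of Slco1b2 in Trad-KAPA lay between -0.26 and 0.09, and in 3’-LEXO that of Slc10a1 between -0.02 and 0.20 and that of Nr1h4 between -0.07 and 0.15 (-0.02 without control mouse 3), with -0.01 under upper quartile factors and under no filter. The interaction of Slc10a1 lay between -0.16 and 0.13 (0.03 without iron-loaded mouse 3), that of Slco2b1 between -0.10 and 0.07 (-0.03 without control mouse 3, -0.05 with the mouse block and -4.6e-03 with no filter), that of Abcc2 between -0.08 and 0.04 (0.01 without control mouse 2) and that of Abcb1a between -0.24 and 0.02. The kit effect of Slco1a1 lay between -0.40 and 0.05. The cause was not tested.

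Of the other log2 values of single genes, 951 kept their direction and side of the threshold, 33 passed it in the alternative only and 90 lost the call. In Trad-KAPA, Slco1a1 and Abcc4 had the widest standard errors of the 10 genes (0.61 and 0.64), and that of Abcc4 was 0.17 without iron-loaded mouse 1.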

Other observations

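Genes that mark the zones of the liver lobule were read from the same fits, in which 17.1% and 6.10% of all genes were called in Trad-KAPA and 3’-LEXO. Of 6 pericentral genes, edgeR called 0 higher and 2 lower in Trad-KAPA and 0 higher and 1 lower in 3’-LEXO, and Oat, ornithine aminotransferase, was called in both at -1.64 ± 0.20 and -1.62 ± 0.20. The list had median log2 fold changes of -0.18 and -0.26. Of 6 periportal genes, 0 were called higher and 2 lower in Trad-KAPA and 0 higher and 1 lower in 3’-LEXO, and Gls2, the liver glutaminase, was called in both at -1.14 ± 0.22 and -1.16 ± 0.23, with list medians of -0.72 and -0.44. The call of Gls2 was lost without control mouse 3 in Trad-KAPA (-1.32 to -0.97 over the alternative fits), and without control mouse 1 or 3 or iron-loaded mouse 3 and with the replicate number as a block in 3’-LEXO (-1.36 to -0.98).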
